A study of Mus musculus with 14 samples.

Results

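Histone genes were examined in poly(A)-selected RNA of mouse spleen. The members are the 73 genes of the deposited count table, which has 22740 entries, whose symbols begin with H1f, H2ac, H2bc, H3c or H4c followed by a number; no entry carried an older Hist symbol. They comprise 11 H1f genes for linker histones and 18 H2ac, 19 H2bc, 12 H3c and 13 H4c genes for core histones. The spleens came from 14 female wild-type BALB/c mice aged 6 to 8 weeks, each of which gave 1 library. The control group had petrolatum, the vehicle, on dorsal skin and ears (n = 3), although the series' design text calls it untreated. Imiquimod, a Toll-like receptor agonist, was given daily for 5 days as a 5% cream on dorsal skin (imiquimod-dorsal, n = 4) or on the ear (imiquimod-ear, n = 4). IL-23, a cytokine of the type 17 response, was given by intradermal injection, 1 µg into each ear and 4 times within 7 days (IL-23-ear, n = 3). No vehicle injection and no group with petrolatum at 1 site was analysed here, so treatment site and agent are each compared with the same 3 controls. Libraries are named below by group and replicate number.

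Core histones form the protein spool around which DNA is wound in a nucleosome, and linker histones bind where DNA enters and leaves it. Most of these genes are replication-dependent: they are transcribed in S phase, have no introns, and their mRNA ends just after a conserved stem-loop instead of in a poly(A) tail. The stem-loop binding protein SLBP holds that hairpin while the U7 small nuclear ribonucleoprotein guides the cut downstream of it. Some members are also made as polyadenylated RNA, from a poly(A) site beyond the stem-loop or after splicing, and a few such as H1f0 and H1f10 are polyadenylated replacement genes. Selection on oligo(dT) therefore captures mainly the polyadenylated share of histone RNA, and the values below are levels of captured RNA, not of total histone mRNA.

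The stem-loop was searched for in the 200 bases after each annotated stop codon (GRCm39, GENCODE mouse release M39), as a 16-base hairpin with 6 paired bases in each arm that opens with GG and closes with CC. It was found in 66 of the 73 members in 8 versions, and 42 members shared 1 version. The sequences below show the hairpin in capitals with 5 bases on either side, 5′ to 3′ on the gene's strand, for members whose levels are described further on: the commonest version in H1f2, H2ac18, H2ac25 and H2bc27, and the version of H4c9 and H4c14. H4c8 is added for the commonest version among H4 genes.
H1f2, chr13:23923490-23923515, plus strand: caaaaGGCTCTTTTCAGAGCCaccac
H2ac18, chr3:96153343-96153368, plus strand: aaaaaGGCTCTTTTCAGAGCCaccca
H2ac25, chr11:58845993-58846018, plus strand: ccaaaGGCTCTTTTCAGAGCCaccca
H2bc27, chr11:58840170-58840195, plus strand: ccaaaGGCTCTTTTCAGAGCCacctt
H4c8, chr13:23715623-23715648, plus strand: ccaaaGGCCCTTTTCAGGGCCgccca
H4c9, chr13:22225131-22225156, minus strand: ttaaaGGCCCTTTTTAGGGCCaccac
H4c14, chr3:96170250-96170275, minus strand: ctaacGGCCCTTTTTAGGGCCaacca
The version in H4c9 and H4c14 occurred in these 2 genes alone among the 73. The members were then divided by their annotated 3′ end. In 38 members every annotated transcript ended within 100 bases of the stem-loop, in 28 at least 1 transcript ran further, and in 7 no stem-loop was found. Some of the 38 are annotated only to the stop codon and do not reach the stem-loop. For those genes the annotation does not show where the RNA ends.

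Histone RNA was a small part of these libraries. Library totals over named genes ran from 28354674 to 40289411 counts, and the 73 members held 3769 to 6359 of them, or 0.0114% to 0.0174%. Levels are given as TMM-scaled CPM, read counts relative to the scaled library total. The limit that a count of 0 allows is 3 counts, which is 0.0754 to 0.0976 CPM here and covers counting error only. H1f7 and H2ac1 had 0 counts in every library, 50 members had at least 1 count in every library, 14 averaged at least 1 CPM, and 4 averaged at least 10 CPM. The filter on low counts kept 42 members for testing; the other 31 had at most 99 counts over the 14 libraries together. The 5 members with the highest means held 69.6% to 76.2% of each library's histone counts.

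Per kilobase of annotated exon, the highest means over the 14 libraries were those of H1f2 at 19.98 CPM per kb and H1f0 at 18 CPM per kb. H2ac18 followed at 8.74, H4c9 at 7.30, H2ac25 at 7.11, H2ac19 at 7.08 and H2bc21 at 4.81 CPM per kb. H1f0, H1f10 and H2bc21 have no stem-loop by this search, and H1f2, H2ac25 and H4c9 have annotated transcripts that continue 840, 1643 and 330 bases past it. The 28 members that run past the stem-loop held 51.9% of all histone counts, the 7 without one 36.8%, and the 38 that end near it 11.3%. Among the 28 members that run past the stem-loop, 9 averaged 1 CPM or more. Among the 38 that end near it, only H2ac18 and H2ac19 did. The median was 0.254 CPM per kb in the former class and 0.439 in the latter, on a scale that divides by exon length and so lowers genes with long annotated ends. The coding sequences of H2ac18 and H2ac19 are identical, so the counts of that pair cannot be assigned to 1 gene with certainty.

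**Figure D1:**
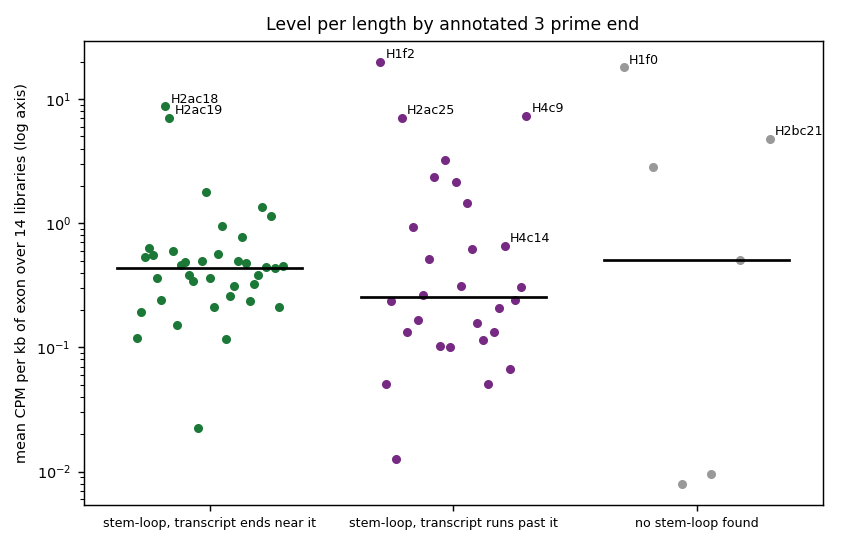
Mean CPM per kb of exon over 14 libraries (log axis) for each histone gene with at least 1 count, by annotated 3′ end; the bars are the class medians, which include genes at 0. H2ac18 and H2ac19 stand apart from the other genes that end near the stem-loop, and H1f2 and H1f0 are the highest of all.

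Summed over the 73 members, the level was 143, 121 and 114 CPM in the control libraries, 151, 190, 157 and 168 CPM in imiquimod-dorsal, 156, 162, 165 and 160 CPM in imiquimod-ear, and 120, 116 and 108 CPM in IL-23-ear. On this scale every imiquimod library lay above every control library, while IL-23-ear and control overlapped. The ratio of means to control was 1.32 in imiquimod-dorsal, 1.28 in imiquimod-ear and 0.910 in IL-23-ear. Scaled by library totals alone, the ratio was 1.05 in imiquimod-dorsal, where only 1 of 4 libraries lay above all controls, and 1.19 in imiquimod-ear, where all 4 did. On the TMM scale, genes of DNA replication moved much further: the summed level of 31 S phase genes was 1656 ± 559 CPM (SD, n = 3) in control, 8522 ± 820 (n = 4) in imiquimod-dorsal, 3365 ± 1006 (n = 4) in imiquimod-ear and 1603 ± 188 (n = 3) in IL-23-ear, ratios of 5.15, 2.03 and 0.968. The S phase ratios were not recomputed under library totals alone.

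Members without a stem-loop summed to 49.9 ± 6.00 CPM in control and 59.5 ± 3.71 in imiquimod-dorsal, and those that run past the stem-loop to 62.0 ± 7.42 and 89.3 ± 15.1. Scaled by library totals alone, the ratios of these classes to control went from 1.19 to 0.946 and from 1.44 to 1.14. The 38 members that end near the stem-loop summed to 14.1 ± 2.27 CPM in control, 17.97 ± 3.94 in imiquimod-dorsal and 17.9 ± 1.97 in imiquimod-ear, ratios of 1.27 and 1.26, and both groups overlapped control. The 36 members that end near the stem-loop, H2ac18 and H2ac19 left out after their values were seen, summed to 4.73, 4.32 and 4.51 CPM in control. They reached 7.83, 15.6, 8.94 and 9.18 CPM in imiquimod-dorsal, 7.05, 12.6, 9.36 and 5.56 in imiquimod-ear, and 4.80, 6.10 and 4.87 in IL-23-ear. The imiquimod libraries numbered 3 were the highest of their groups in this sum, and no imiquimod library overlapped control. For these 36 members the ratio to control was 2.30 in imiquimod-dorsal and 1.92 in imiquimod-ear, and 1.81 and 1.77 with library totals alone.

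**Figure D2:**
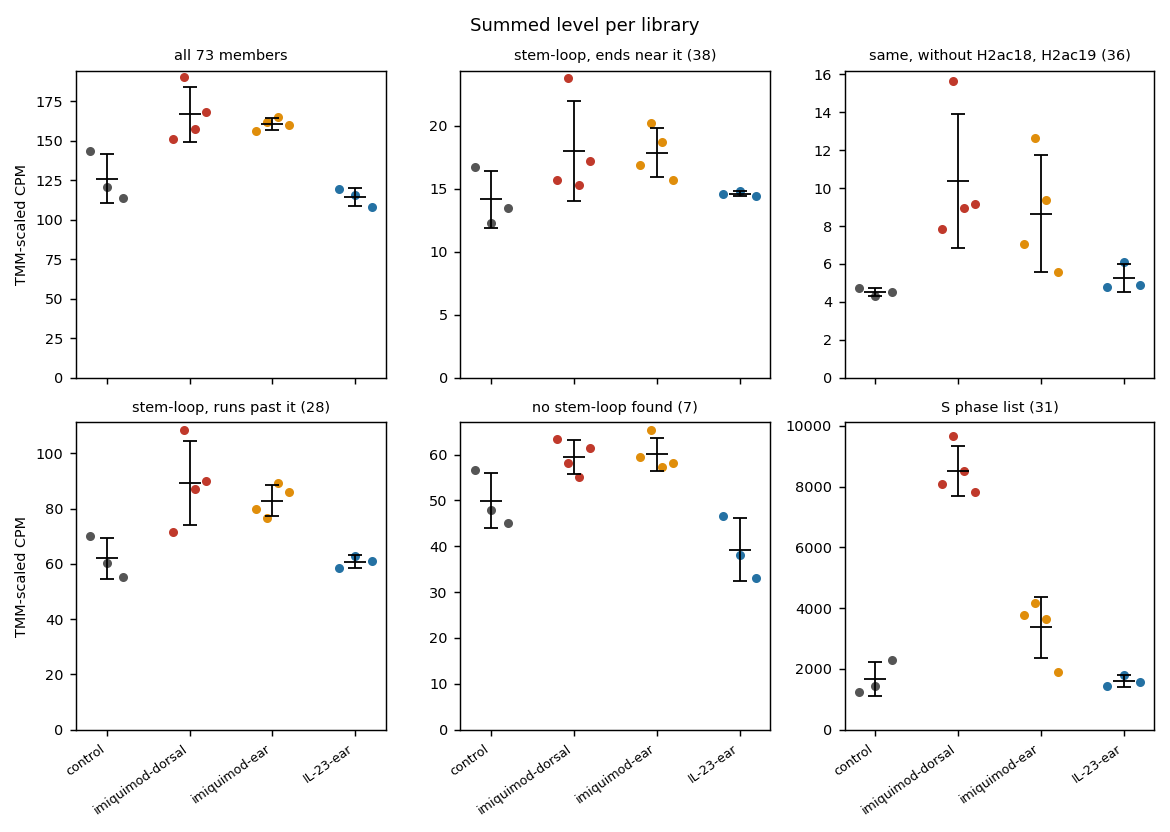
Summed TMM-scaled CPM per library for all histone genes, for the classes by annotated 3′ end and for the S phase list (numbers of genes in brackets); points are libraries, bars the mean and SD. The histone sums in imiquimod-dorsal rise far less than the S phase sum, from 126 to 167 CPM against 1656 to 8522 CPM.

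By family, the H2bc sum was 21.5, 23.2 and 20.1 CPM in control and 37.5, 49.5, 41.7 and 43.7 CPM in imiquimod-dorsal, a ratio of 2.00. The H4c sum had a ratio of 1.72, the H3c sum 1.32 and the H1f sum 1.29. The H3c sums overlapped, at 3.94 to 6.72 CPM in imiquimod-dorsal and 3.50 to 4.86 in control. So did the H1f sums, at 77.8 to 92.1 and 54.9 to 79.9 CPM. The H2ac sum was lower, at 24.3 ± 3.24 CPM in imiquimod-dorsal against 29.8 ± 1.49 in control, a ratio of 0.815. Of the 12 tested H2ac genes, 9 had a log2 fold change above 0, with a median of 0.81, so the lower sum reflects its abundant members H2ac25, H2ac18 and H2ac19, described below. Scaled by library totals alone, the ratios were 1.58 for H2bc, 1.36 for H4c, 1.05 for H3c, 1.02 for H1f and 0.645 for H2ac. In imiquimod-ear the TMM-scaled ratios to control were 1.44 for H2bc, 1.71 for H4c, 1.55 for H3c and 1.33 for H1f, without overlap. There the H2ac sum had a ratio of 0.912 and overlapped control, as did the H1f sum under library totals alone.

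In spleens of imiquimod-dorsal mice, 18 of the 42 tested members were higher than in control and 2 were lower (edgeR's quasi-likelihood test, Benjamini-Hochberg adjusted p under 0.05). Among all 15159 genes tested, 32.3% were called higher and 27.6% lower in this comparison. The median log2 fold change was 1.00 over the tested members and -0.00 over all genes. Of the tested members, 27 met the filter's level in only some libraries; the 15 that met it in all 14 had a median of 0.76, with 9 higher and 1 lower. In 11 tested members, under 25% of the coding 75-base stretches occur in another member. These 11 had a median of 0.72, with 4 higher and 2 lower. The rises covered 8 of 12 tested H2bc genes, 3 of 6 H3c, 3 of 7 H4c, 2 of 5 H1f and 2 of 12 H2ac genes. Without imiquimod-dorsal library 3, 11 of 38 tested members were called higher. Without control library 4, 4 of 51 tested members were called lower. With a minimum count of 30, 16 members could be tested and 10 were higher. Scaled by library totals alone, the median of all genes shifted by -0.33, and the split of members was 12 higher and 5 lower.

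H2bc27 (chr11:58838848-58840361), a core histone gene with a spliced transcript, was at 0.88, 0.86 and 0.41 CPM in control and at 2.58, 4.39, 4.06 and 2.97 CPM in imiquimod-dorsal. All 4 treated libraries lay above the controls, and the fitted difference was 2.28 ± 0.36 on the log2 scale (± SE here and below; adjusted p = 9.91e-05, edgeR). H2bc4 (chr13:23867631-23878163) was at 5.84, 6.27 and 6.73 CPM in control and at 12.2, 15.1, 11.6 and 13.3 CPM in imiquimod-dorsal. The groups did not overlap, and the log2 fold change was 1.05 ± 0.14 (adjusted p = 3.05e-05, edgeR). H2bc4 has an annotated transcript spliced past its stem-loop, 95.1% of its coding 75-base stretches occur in another member, and 301 exon bases overlap H2ac6 on the opposite strand, so reads of these genes cannot be fully told apart.

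H2bc21 (chr3:96128435-96131054), which has no stem-loop by this search and shares none of its coding 75-base stretches with another member, was at 10.6, 12.1 and 9.17 CPM in control and 16.2, 18.3, 18.2 and 18.98 CPM in imiquimod-dorsal. Its log2 fold change was 0.76 ± 0.13 (adjusted p = 0.000276, edgeR), with no overlap. H2bc8 rose by a log2 fold change of 1.00 ± 0.26 and H2bc24 by 1.07 ± 0.27 (adjusted p = 0.00411 and 0.00322, edgeR), both without overlap. H2bc24 and H2bc23 have identical coding sequences, so H2bc24's value is uncertain. Of the coding 75-base stretches of H2bc8, 84.9% occur in another member, so its reads cannot be fully told apart either.

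Among linker histones, H1f2 (chr13:23922791-23924350) was at 32.8, 21.7 and 18.3 CPM in control and 30.6, 50.2, 39.8 and 39.8 CPM in imiquimod-dorsal. The log2 fold change was 0.72 ± 0.19 (adjusted p = 0.00539, edgeR), although control library 2 lay above imiquimod-dorsal library 2. H1f10, a replacement linker histone, was at 2.86, 2.05 and 2.62 CPM in control and 5.31, 3.52, 4.42 and 4.71 CPM in imiquimod-dorsal, without overlap, with a log2 fold change of 0.84 ± 0.22 (adjusted p = 0.00505, edgeR). Scaled by library totals alone, neither H1f2 (adjusted p = 0.0837) nor H1f10 (adjusted p = 0.0577) passed. H1f0 (chr15:78912650-78914704), the replacement linker histone known from differentiated cells, was at 43.1, 33.6 and 33.2 CPM in control and 41.9, 35.7, 32.2 and 37.3 CPM in imiquimod-dorsal. These groups overlapped, and the log2 fold change of 0.01 ± 0.13 did not pass (adjusted p = 0.974, edgeR); scaled by library totals alone, H1f0 fell by 0.33 (adjusted p = 0.047, edgeR).

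H4 genes moved in opposite directions. H4c9 (chr13:22224806-22225532) was at 4.13, 3.23 and 2.201 CPM in control and 5.08, 9.06, 7.71 and 6.90 CPM in imiquimod-dorsal, a log2 fold change of 1.17 ± 0.25 (adjusted p = 0.00112, edgeR). H4c14 (chr3:96168998-96170627) was at 1.377, 2.14 and 1.35 CPM in control and 0.51, 0.32, 0.29 and 0.25 CPM in imiquimod-dorsal, from 52 to 67 counts in control and 8 to 18 in the treated libraries. Neither gene's groups overlapped, and H4c14 fell by 2.21 ± 0.37 on the log2 scale (adjusted p = 0.000158, edgeR). Both genes carry the same hairpin and both have annotated transcripts past it, by 330 bases in H4c9 and 1257 bases in H4c14. H4c14 shares none of its coding 75-base stretches with another member, whereas 60.0% of those of H4c9 occur in one.

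H2ac25 (chr11:58845511-58847656) also fell. It was at 16.9, 17.9 and 19.2 CPM in control and at 10.0, 13.1, 10.9 and 13.6 CPM in imiquimod-dorsal, without overlap, and fell by 0.60 ± 0.13 on the log2 scale (adjusted p = 0.001, edgeR). Of its exon bases, 1531 overlap Trim17 on the same strand, so its reads cannot be told apart from those of Trim17 there. H2ac18 and H2ac19 were at 5.48 ± 1.46 and 4.14 ± 0.624 CPM in control and at 4.44 ± 0.456 and 3.14 ± 0.405 CPM in imiquimod-dorsal. Neither difference passed, with log2 fold changes of -0.31 ± 0.18 and -0.40 ± 0.17 (adjusted p = 0.153 and 0.0513, edgeR). H2ac18 passed as lower with library totals alone, with upper-quartile factors and without control library 4 (adjusted p = 0.0076, 0.0222 and 0.0322, edgeR), and H2ac19 under 16 of 25 alternatives, given in the closing section.

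**Figure D3:**
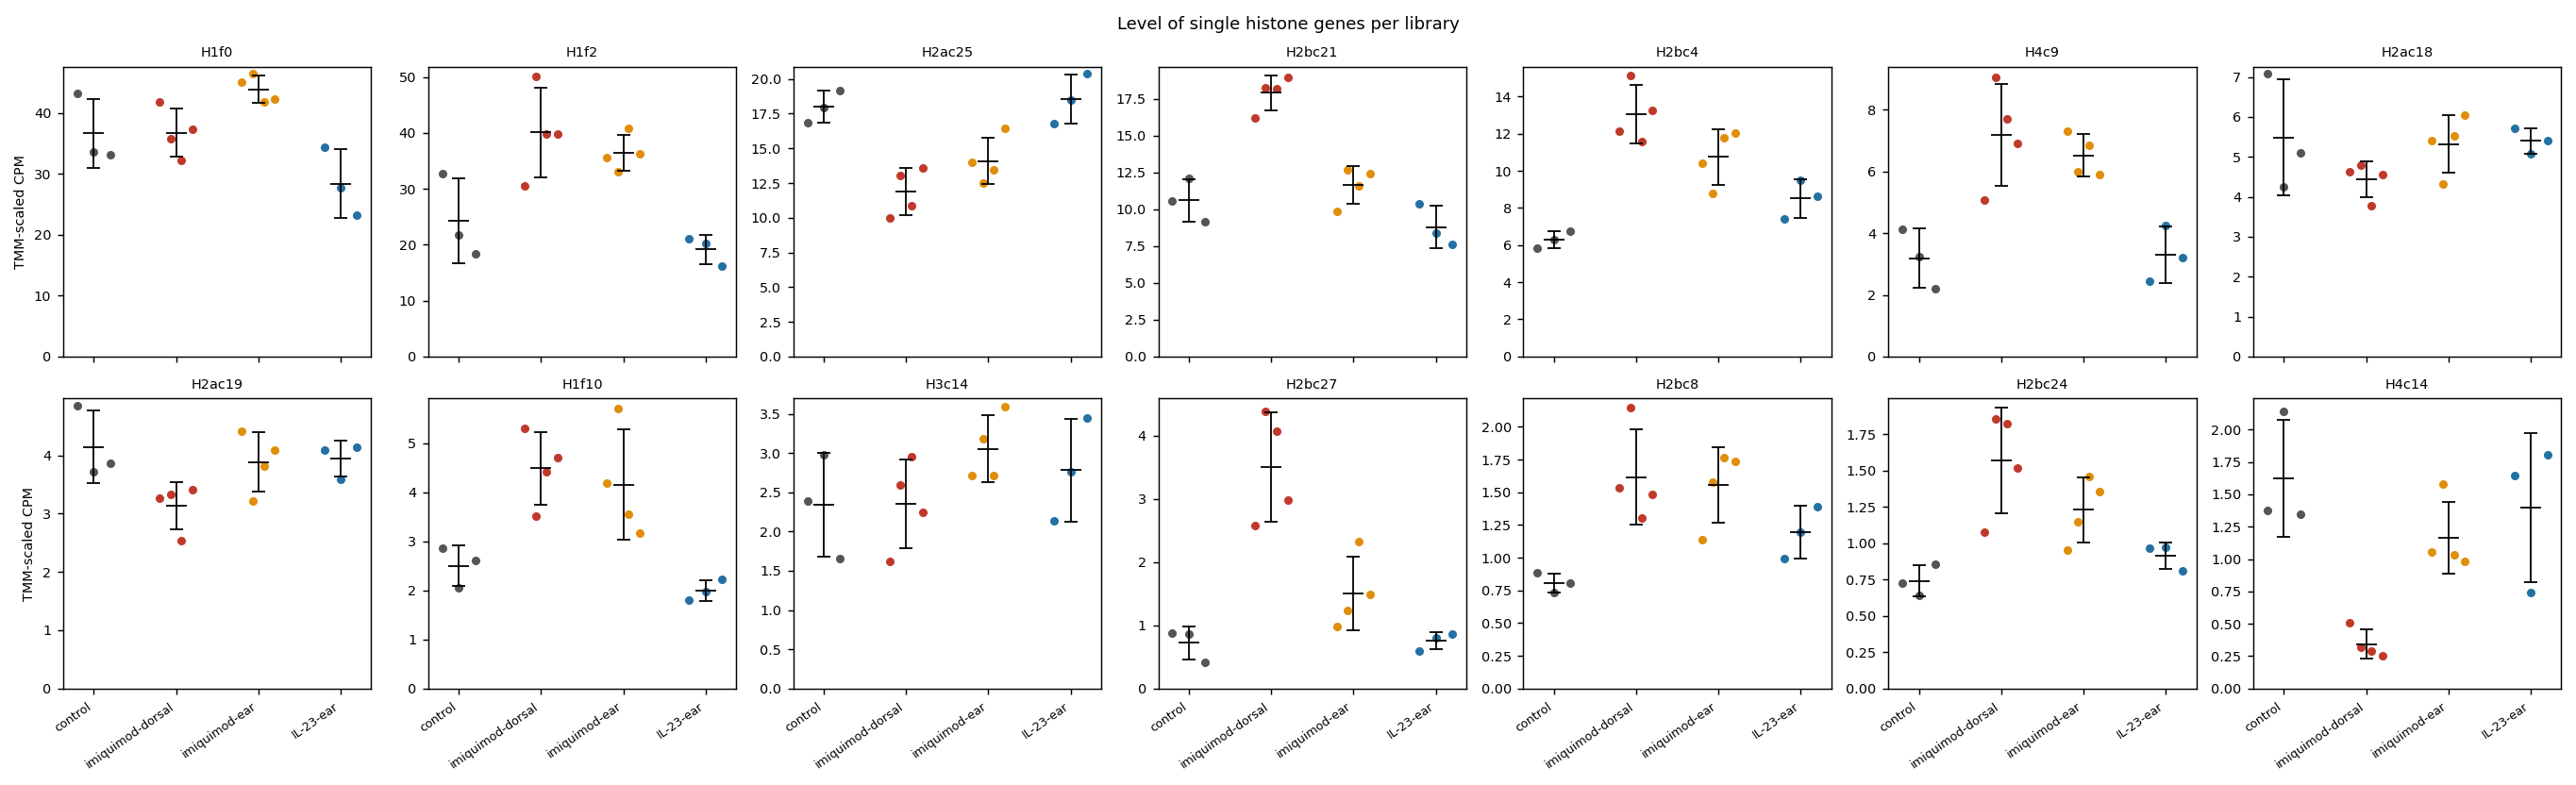
TMM-scaled CPM per library of 14 histone genes in the 4 groups; points are libraries, bars the mean and SD, and each panel has its own axis from 0. H2bc27 and H4c9 lie higher and H4c14 and H2ac25 lower in imiquimod-dorsal than in control, while H1f0 overlaps.

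Several further rises were of members with few counts, named here after their values were seen. H2ac10 had 1, 2 and 3 counts in the control libraries and 10, 22, 20 and 19 in imiquimod-dorsal. H3c8 had 0, 2 and 1 counts in control and 7, 15, 8 and 5 in imiquimod-dorsal. Such genes entered the test only because of the treated libraries, so their passing the filter already reflects a difference.

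In imiquimod-ear, 9 of 42 tested members were higher than in control and 0 were lower, against 14.3% and 6.98% of all genes. The median log2 fold change was 0.73 over the tested members and 0.02 over all genes. The 15 members that met the filter's level in all 14 libraries had a median of 0.58, with 7 higher and 0 lower. The 11 members with under 25% of coding 75-base stretches in another member had a median of 0.22. Of these 11, 8 had a log2 fold change above 0 and 3 were called higher. For the count of 0, 15 members had an unadjusted p under 0.05 in either direction by edgeR; limma-voom called 0 lower and DESeq2 1. The count of 9 fell to 4 without control library 2, to 2 without control library 4, to 4 without control library 5, to 3 without imiquimod-ear library 3 and to 5 without imiquimod-ear library 4. In that order these fits tested 50, 51, 51, 37 and 39 members, as the filter was applied anew to each.

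H2bc4 was at 10.4, 8.76, 11.8 and 12.0 CPM in imiquimod-ear, above each control library, with a log2 fold change of 0.78 ± 0.14 (adjusted p = 0.00399, edgeR). This was the single called rise of the rule's genes in this comparison that stayed called with each library left out in turn. H4c9 was at 7.32, 6.00, 6.86 and 5.91 CPM, also above each control library, with a log2 fold change of 1.03 ± 0.25 (adjusted p = 0.0115, edgeR), but without control library 4 the call was lost (adjusted p = 0.0574, edgeR). H2bc8 (log2 fold change 0.94 ± 0.25), H2bc27 (1.06 ± 0.35), H1f10 (0.73 ± 0.22) and H1f2 (0.58 ± 0.19) were called as well (adjusted p = 0.0196, 0.0453, 0.0328 and 0.0451, edgeR). All 4 lost their calls without control library 4, without control library 5 and without imiquimod-ear library 3. H2bc8, H2bc27 and H1f10 also lost them without control library 2, H2bc8, H2bc27 and H1f2 without imiquimod-ear library 4, H1f2 and H1f10 without imiquimod-ear library 1, and H1f2 and H2bc27 without imiquimod-ear library 5. Leaving out imiquimod-dorsal library 4 or 5 or IL-23-ear library 1, 2 or 3, which enter only the shared estimate of spread and scaling, ended the calls on H1f2 and H2bc27, and IL-23-ear library 2 that on H1f10. The calls on H1f2 and H2bc27 were also lost under other scalings and filters, with adjusted p up to 0.0815 and 0.0626 there; over all alternatives the highest were 0.192 and 0.156, without control library 4 and without control library 5 (edgeR).

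H2bc21, at 9.88, 12.7, 11.6 and 12.4 CPM in imiquimod-ear, overlapped control, and its log2 fold change of 0.14 ± 0.13 did not pass (adjusted p = 0.494, edgeR). H4c14, at 1.06, 1.58, 1.04 and 0.98 CPM, also overlapped control (log2 fold change -0.48 ± 0.34, adjusted p = 0.338, edgeR). H2ac25, at 14.0, 12.5, 13.5 and 16.4 CPM, lay below each control library, but its log2 fold change of -0.35 ± 0.13 did not pass (adjusted p = 0.0604, edgeR). H1f0, at 45.1, 46.4, 41.8 and 42.3 CPM, overlapped control and did not pass (log2 fold change 0.26 ± 0.13, adjusted p = 0.174, edgeR).

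In IL-23-ear, 0 of 42 members were called in either direction against control by edgeR, where 0.0462% of all genes were called higher and 0.0066% lower. At an unadjusted p under 0.05 there were 4 members by edgeR, 3 by limma-voom and 3 by DESeq2, and those tools also called 0 after adjustment; DESeq2 gave no adjusted p for 35 members. The median log2 fold change was 0.05 over the tested members and 0.01 over all genes. H1f2 was at 21.1, 20.2 and 16.1 CPM, H2bc4 at 7.41, 9.50 and 8.63 CPM, and H4c14 at 1.64, 0.74 and 1.81 CPM.

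The imiquimod sites were compared directly. In imiquimod-ear, 1 member was higher and 3 were lower than in imiquimod-dorsal, against 23.3% and 24.5% of all genes, and the median log2 fold change was -0.13. H4c14 was higher in imiquimod-ear by 1.74 ± 0.35 on the log2 scale (adjusted p = 0.00122, edgeR). H2bc27 fell by 1.22 ± 0.30 and H2bc21 fell by 0.62 ± 0.12 (adjusted p = 0.00493 and 0.00102, edgeR). The third lower member was H2ac10, with 4, 5, 5 and 1 counts in imiquimod-ear, named after its values were seen. H2ac10 passed the filter on low counts through the imiquimod-dorsal libraries, so its call here already reflects that selection. For H2bc4, H4c9, H1f2 and H1f10 the groups overlapped and no call was made.

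IL-23-ear was compared with each imiquimod group. Against imiquimod-ear, 1 member was higher and 7 were lower, where 7.05% and 10.2% of all genes were, and the median log2 fold change was -0.56. The 15 members that met the filter's level in all 14 libraries had a median of -0.38, with 1 higher and 4 lower. H1f2 fell by 0.93 ± 0.19, H1f10 by 1.06 ± 0.23, H1f0 by 0.63 ± 0.13 and H4c9 by 0.98 ± 0.25 on the log2 scale (adjusted p = 0.00738, 0.00762, 0.00738 and 0.0175, edgeR), each without overlap. The call on H4c9 was lost without imiquimod-ear library 1 and without IL-23-ear library 1 or 3. H2ac25 was higher by 0.40 ± 0.13 (adjusted p = 0.0444, edgeR). The 7 lower calls became 4 without imiquimod-ear library 3 or 4 or IL-23-ear library 1 or 2, and 3 without IL-23-ear library 3. Those fits tested 37 to 51 members. The call on H2ac25 was lost without control library 4, imiquimod-dorsal library 4, any of imiquimod-ear libraries 1, 3 and 4, or any IL-23-ear library.

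Against imiquimod-dorsal, 2 members were higher in IL-23-ear and 18 lower, where 27.1% and 30% of all genes were, and the median log2 fold change was -0.80. The 15 members that met the filter's level in all 14 libraries had a median of -0.48, with 1 higher and 8 lower. All 5 tested H1f genes and 7 of 12 tested H2bc genes were among those lower. The call on H1f0 was lost without imiquimod-dorsal library 2, imiquimod-ear library 1 or IL-23-ear library 2 or 3. It was also lost under library totals alone (log2 fold change -0.094, adjusted p = 0.567, edgeR). Upper-quartile factors gave -0.18 (adjusted p = 0.289, edgeR) and the fit of those 2 groups -0.34 (adjusted p = 0.0632, edgeR). H2bc27 fell by 2.21 ± 0.36, H2bc21 by 1.03 ± 0.14 and H1f2 by 1.07 ± 0.20 (adjusted p = 0.000121, 2.4e-05 and 0.000389, edgeR), while H4c14 was higher by 2.00 ± 0.37 and H2ac25 by 0.64 ± 0.13 (adjusted p = 0.000366 and 0.000597, edgeR). The comparisons share libraries, so these calls are not independent of those against control.

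**Figure D4:**
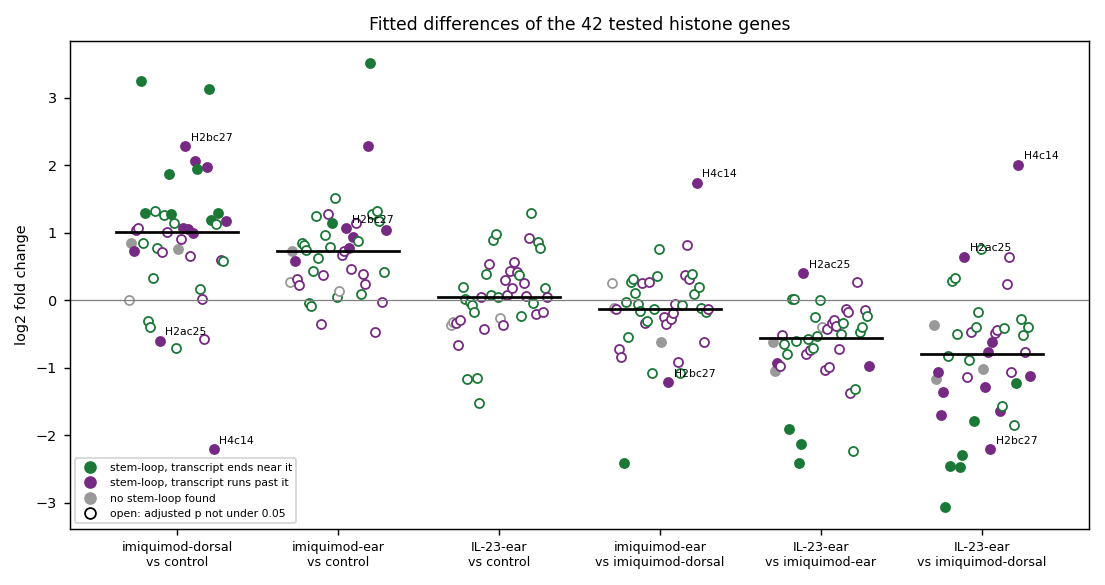
Log2 fold change of each of the 42 tested histone genes in the 6 comparisons, coloured by annotated 3′ end; filled points passed an adjusted p of 0.05 and bars are medians. Medians are 1.00 for imiquimod-dorsal and 0.73 for imiquimod-ear against control, and H4c14 lies far below the others in imiquimod-dorsal. For the 15 members that met the filter's level in all 14 libraries, these medians are 0.76 and 0.58. For the 11 members with under 25% of coding 75-base stretches in another member, they are 0.72 and 0.22.

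Genes that act on histones were taken from fixed lists. Of 19 genes of histone pre-mRNA processing, 14 were higher and 2 lower in imiquimod-dorsal, 5 were higher and 1 lower in imiquimod-ear, and 0 were called in IL-23-ear. For this list and those that follow, the shares over all genes were 32.3% higher and 27.6% lower in imiquimod-dorsal. In imiquimod-ear they were 14.3% and 6.98%. Slbp, which encodes the stem-loop binding protein, was at 107 ± 17.1 CPM in control and 495 ± 44.9 in imiquimod-dorsal, a log2 fold change of 2.22 ± 0.19 (adjusted p = 1.42e-06, edgeR), and it rose by 0.69 ± 0.18 in imiquimod-ear (adjusted p = 0.0163, edgeR). The latter call was lost under 6 of 25 alternatives, with adjusted p up to 0.13 (edgeR), among them the fits without control library 2 or 4 and without imiquimod-ear library 1 or 3. Eri1, an exonuclease that acts at the stem-loop, rose by 1.03 ± 0.12 in imiquimod-dorsal (adjusted p = 6.82e-06, edgeR). Tut4, a terminal uridylyltransferase, fell by 0.69 ± 0.08 in imiquimod-dorsal (adjusted p = 6.13e-06, edgeR) and by 0.39 ± 0.08 in imiquimod-ear (adjusted p = 0.00526, edgeR).

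Of 23 histone chaperone and assembly genes, 20 were higher and 1 lower in imiquimod-dorsal, and 16 were higher and 1 lower in imiquimod-ear. Chaf1b, a subunit of the assembly factor that acts behind the replication fork, rose by 2.496 ± 0.23 (adjusted p = 2.31e-06, edgeR) and Asf1a, which carries H3 and H4, by 1.49 ± 0.14 (adjusted p = 2.24e-06, edgeR) in imiquimod-dorsal. The lower gene in both was Daxx, a chaperone of the H3.3 variant, which fell by 0.85 ± 0.18 in imiquimod-ear (adjusted p = 0.00629, edgeR). Of 9 replacement histone variant genes tested, 7 were higher in imiquimod-dorsal and 5 in imiquimod-ear. H2az1, a polyadenylated variant gene, was at 228 ± 43.8 CPM in control, 767 ± 58.3 in imiquimod-dorsal and 409 ± 81.9 in imiquimod-ear, and rose by 1.75 ± 0.16 and 0.85 ± 0.15 (adjusted p = 1.68e-06 and 0.0039, edgeR). All 31 S phase genes and all 15 mitosis genes were higher in imiquimod-dorsal, and 30 and 15 were in imiquimod-ear; in IL-23-ear 0 were called by edgeR.

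The make-up of the tissue differed between the groups as well. All 15 erythroid marker genes were higher in imiquimod-dorsal and 0 in imiquimod-ear, and their summed level was 12010 to 38804 CPM in control, 83707 to 140403 in imiquimod-dorsal, 7923 to 52294 in imiquimod-ear and 3408 to 14395 in IL-23-ear. Of 12 neutrophil markers, 12 were higher in imiquimod-dorsal and 10 in imiquimod-ear. All 9 plasma cell markers were higher in imiquimod-ear, with sums of 1276 to 1533 CPM in control and 3183 to 4823 CPM there, and all 7 T cell markers were lower in imiquimod-dorsal. Pancreas markers summed to 351 CPM in imiquimod-dorsal library 4 and to 6.84 to 16.2 CPM in the other libraries. The part of these cell types in the histone values was not tested. In bulk tissue, a change in the number of cells of a type and a change in RNA per cell cannot be told apart.

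The promoters of the members were read from 250 bases before to 50 after the annotated start, on GRCm39, and 3 motifs were searched on both strands. TATAAA occurred in 49.3% of the 73 windows and 13.2% of 21757 windows of protein-coding genes, CCAAT in 79.5% and 39.9%, and the octamer ATTTGCAT in 20.5% and 1.6%. The octamer lay in 7 of 18 H2ac and 8 of 19 H2bc windows and in 0 of the H1f, H3c and H4c windows. Several H2ac and H2bc genes lie head to head with overlapping windows. A match can therefore count for both genes, and these windows are not independent. The 250 bases before the start of H4c9, an H4 gene that rose in imiquimod-dorsal, are shown with the match in capitals, 5′ to 3′ on the gene's strand.
H4c9, chr13:22225533-22225782, minus strand: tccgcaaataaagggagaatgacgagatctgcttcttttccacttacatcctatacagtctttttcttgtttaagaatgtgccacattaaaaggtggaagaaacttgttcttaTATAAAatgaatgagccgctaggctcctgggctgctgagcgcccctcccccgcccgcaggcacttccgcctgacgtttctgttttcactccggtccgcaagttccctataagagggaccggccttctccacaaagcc
This stretch held 1 TATAAA and no CCAAT. A match describes the letters and is not evidence of binding.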

How the data were processed

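Spleen RNA was selected on oligo(dT) beads, and non-stranded libraries were sequenced as paired reads of 150 bases, per the labels' protocols. The authors deposited 1 raw read count per gene and library. Per the submitters' processing notes, the tools were featureCounts 2.0.3, DESeq2 1.38.3, HISAT2 2.2.1, fastp 0.23.2 and StringTie 2.2.1, with build GRCm39 and no roles named. How multi-mapping reads were treated is not given in the sources used here, nor is the annotation, and near-identical histone genes are uncertain for that reason.

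Of 22740 entries, 624 unnamed loci (0.484% to 0.674% of counts) were left out. Counts were tested with edgeR 4.0.16 (robust quasi-likelihood F test, TMM, filterByExpr minimum count 10) in 1 fit of all 14 libraries, with Benjamini-Hochberg adjustment over 15159 genes and a threshold of 0.05. SE is the log2 fold change divided by the root of F. The labels call the samples biological replicates in 1 batch. A p-value judges a group difference against the spread between samples within groups, estimated over all 4 groups with information shared across genes. Replicate pairs differed beyond sampling noise (chi-square per degree of freedom 21.4 to 124), so none was merged.

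Coordinates, 3′ ends and sequences came from GRCm39 with GENCODE mouse release M39, which held 22101 of 22105 Ensembl genes of the table. Genes named are the 12 members with the highest mean CPM, up to 5 rises and 5 falls per comparison with separate groups and mean log2 CPM of at least 0, H1f0 and H1f10, and up to 3 called genes per pathway list and comparison with Slbp. Members, lists and this rule were chosen with earlier results of these data known. The test was tried on simulated counts of 15159 genes for imiquimod-dorsal against control, with dispersions estimated from these libraries: it recovered 68 of 100 genes changed 2-fold and 87 of 100 changed 4-fold, and called 4 unchanged genes. The changed genes were few and drawn at random from all tested genes. Of the 42 tested members, 28 average under 1 CPM, and recovery at such levels was not measured. Scaling under a change of many genes was not simulated. Alternatives were DESeq2 1.42.0, limma-voom (limma 3.58.1), other scalings and filters, subsets of libraries and a replicate block. A promoter sequence of 1 further member is not reported here.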

Additional observations from a re-analysis of the deposited data

Results flagged for a closer look

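Among 54 groups of 4 libraries examined, 3 held a library far from the other 3, where chance flags about 1 in 20. H4c14 in imiquimod-ear library 3 was at 1.58 CPM, against 0.981 to 1.06 CPM in the others. The H4c sum in imiquimod-ear library 5 was 9.08 CPM, against 11.3 to 11.4 CPM. The 31 members left out of testing summed to 8.26 CPM in imiquimod-dorsal library 3, against 3.38 to 3.96 CPM.

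The difference between the imiquimod sites passed the test itself for 4 members. The log2 fold change of imiquimod-ear against imiquimod-dorsal was 1.74 for H4c14, -1.22 for H2bc27, -0.62 for H2bc21 and -2.41 for H2ac10, the last from 1 to 22 counts per library. H2ac10 passed the filter on low counts through imiquimod-dorsal, the group where it is high, so its result does not stand beside the others as a test.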

How the results depend on the processing

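Of 34 called results of named histone genes, 22 kept their call under all 25 alternatives. With a minimum count of 30, which tests fewer members, members higher against control were 10 in imiquimod-dorsal and 5 in imiquimod-ear, 9 members were lower in IL-23-ear than in imiquimod-dorsal and 4 lower than in imiquimod-ear, and the medians were 0.74 for imiquimod-dorsal against control and -0.49 for IL-23-ear against imiquimod-dorsal. Except where a setting's own construction shows it (fewer or more genes tested, fewer libraries), the cause of a change was not tested. With 1 library left out, 37 to 51 members were tested.

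Scaling moved the median of all genes. Against TMM it shifted by -0.23 under upper-quartile factors and -0.33 under library totals alone in imiquimod-dorsal against control, by -0.10 under library totals in imiquimod-ear against control, by 0.16 and 0.23 in imiquimod-ear against imiquimod-dorsal, and by 0.20 and 0.28 in IL-23-ear against imiquimod-dorsal. Under library totals, calls over all genes were 2748 higher and 7242 lower in imiquimod-dorsal against control, beside 4890 and 4181 under TMM, 1439 and 1775 in imiquimod-ear against control, beside 2161 and 1058, 6513 and 2164 in imiquimod-ear against imiquimod-dorsal, beside 3528 and 3709, and 6752 and 2881 in IL-23-ear against imiquimod-dorsal, beside 4107 and 4544. Members lower in imiquimod-dorsal than in control became 4 under upper-quartile factors and 5 under library totals, where the median was 0.66. Members higher in imiquimod-ear than in imiquimod-dorsal became 5 and 7. In IL-23-ear against imiquimod-dorsal, 4 were higher under either scaling, and under library totals 10 were lower with a median of -0.53. In imiquimod-ear against control, 1 member was lower under DESeq2, RLE, upper-quartile factors, library totals, scaling without haemoglobin and immunoglobulin genes, and a minimum count of 30. The ratios of summed histone levels were recomputed under each scaling, a step chosen after seeing the data: for all members in imiquimod-dorsal they ran from 1.05 (library totals) to 1.32 (TMM). By limma-voom, 4 members were lower in IL-23-ear than in imiquimod-ear. H1f0 in imiquimod-dorsal, at 0.01, changed sign to -0.023 under DESeq2 and RLE, -0.23 under upper-quartile factors, -0.33 under library totals, -0.045 without haemoglobin and immunoglobulin genes in scaling and without a filter, -0.052 with a minimum count of 30, and -0.044 in the fit of those 2 groups. H2ac19 passed as lower in imiquimod-dorsal under 16 alternatives, with -0.43 by DESeq2 (adjusted p = 0.0255). Over all genes, IL-23-ear against control had 7 higher and 1 lower, but 111 and 23 by DESeq2 and 0 under several other settings.

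Fitting only the compared groups gave 3 members higher in imiquimod-ear than in control with a median of 0.44, 2 higher in imiquimod-ear than in imiquimod-dorsal, and 0 higher and 4 lower in IL-23-ear than in imiquimod-ear. Leaving out both imiquimod libraries numbered 3, chosen after seeing the data, gave 5 higher in imiquimod-ear than in control, 2 higher in imiquimod-ear than in imiquimod-dorsal, 0 higher and 4 lower in IL-23-ear than in imiquimod-ear, and 8 lower in IL-23-ear than in imiquimod-dorsal. With 1 library left out in turn, members higher and lower in imiquimod-dorsal than in control were 11 to 18 and 2 to 4, those in imiquimod-ear against control 2 to 9 and 0 to 1, those higher in imiquimod-ear than in imiquimod-dorsal 1 to 2, those higher and lower in IL-23-ear than in imiquimod-ear 0 to 1 and 3 to 9, and the value of H1f0 in imiquimod-dorsal -0.11 to 0.088.

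Deviations from the group mean of libraries with the same replicate number correlated at -0.241 to 0.183 (13 pairs). With so few libraries per group this cannot exclude a factor shared by number, and the main fit used no replicate block. With a replicate block, 1 member was higher in imiquimod-ear than in control and 3 were lower in IL-23-ear than in imiquimod-ear, and calls over all genes in imiquimod-ear against control were 240 higher and 71 lower; there the calls on Tut4, Daxx and H2az1 were lost too. No paired analysis was possible for IL-23-ear against control because these groups share fewer than 2 numbers.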
